A study of Mus musculus with 6 samples.

Results

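The proteasome genes examined here were the 48 genes of the normalized table, out of 18065, whose symbols begin with Psma, Psmb, Psmc, Psmd, Psme, Psmf or Psmg and a digit. One further match, a name ending in -ps, was left out. The choice went by name within that table; 4 further matches of the raw table, among them Psmb11, are not in it. By role they comprised the alpha ring (7 genes plus the testis form Psma8), the beta ring (4 structural, 3 constitutive catalytic and 3 inducible catalytic genes), the regulatory particle (6 ATPases, 3 other base subunits and 8 lid subunits), 3 chaperones of base assembly, 4 chaperones of core assembly and 5 activators or inhibitors. The remaining match, Psmc3ip, encodes a partner protein of meiotic recombination and is no proteasome subunit, so its name alone placed it among the 48.

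RNA was measured in 6 libraries of tdTomato-positive cells sorted from the mouse telencephalon at E11.5 and labelled MGE cells, after the medial ganglionic eminence, a ventral zone of the embryonic forebrain that gives rise to many cortical interneurons. The heterozygous group had 2 libraries of the genotype Magoh lox/+; Nkx2.1-Cre; ROSAloxSTOPloxTdTomato, and the control group had 4 of Nkx2.1-Cre;ROSAloxSTOPloxTdTomato. Controls therefore also carried the Cre and the reporter, all samples were labelled C57BL/6, and the study asked how loss of a copy of Magoh, a subunit of the exon junction complex on spliced mRNA, alters the transcriptome. The Nkx2.1 promoter drives Cre in ventral forebrain progenitors and their progeny, so only such cells lose the floxed copy. The labels do not say whether each sample was a separate embryo or a pool, so p-values measure the spread between these libraries, which may be technical.

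The proteasome is the protease that degrades ubiquitin-tagged proteins in the cytosol and nucleus. Its core particle is a barrel of alpha rings, which gate the entrance, around beta rings, of which 3 subunits cut proteins. The regulatory particle caps the barrel: its base holds a ring of ATPases that unfold and thread substrates, and its lid removes ubiquitin. Dividing progenitors rely on the proteasome to destroy cyclins and other short-lived proteins. When the proteasome is impaired, the transcription factor encoded by Nfe2l1 is known to raise most subunit genes together through antioxidant response elements in their promoters.

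Libraries held 42.0 and 49.2 M counts (units of 1e+06) in the heterozygous group, against 37.4 to 44.2 M in controls. Values below are counts per 1e+06 of the scaled library (CPM), and 0 counts in a library allow up to 3 counts, or 0.061 to 0.0835 CPM, which covers counting error only. Magoh had 57.1 and 48.6 CPM in the heterozygous libraries, against 63.6 to 118 CPM in controls, so both heterozygous libraries lay below every control. All 12 MGE lineage markers were present, with summed levels of 2453 and 4102 CPM in heterozygous libraries and 2335 to 4204 CPM in controls. The sums lean on Nes, the highest of the 12 in each library. It had 667 and 1170 CPM in heterozygous libraries and 551 to 2011 CPM in controls. Heterozygous library 1 and control library 2 had 0 reads from Y-linked genes, with Xist at 111 and 94.2 CPM, while the other 4 libraries had 3453 to 4291 such reads. These 2 libraries also stood apart in long against short transcripts, as described below, and for this reason differences within libraries of like Y-linked reads stand beside the main genotype differences below. Only 1 heterozygous and 1 control library lacked Y-linked reads, so within that class there is no replicate.

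Promoters of 5 members are shown because the results below turn on these genes: Psmb5 and Psmb6, catalytic core genes that varied with the rest of the core; Psmd2 and Psmd4, base subunits that did not; and Psme4, the member that differed most between genotypes. The sequences are RefSeq promoters of build GRCm38.p6, running 5′ to 3′ on the gene's strand from 250 bases before to 50 bases after the start of transcription. Capitals mark the antioxidant response element core TGACNNNGC in the first pair and the ETS factor core CCGGAAG, or its reverse complement, in the other three. The regions are chr14:54617946-54618245 (minus strand) for Psmb5, chr11:70525107-70525406 (plus) for Psmb6, chr16:20651402-20651701 (plus) for Psmd2, chr3:95042565-95042864 (minus) for Psmd4 and chr11:30771525-30771824 (plus) for Psme4.
Psmb5: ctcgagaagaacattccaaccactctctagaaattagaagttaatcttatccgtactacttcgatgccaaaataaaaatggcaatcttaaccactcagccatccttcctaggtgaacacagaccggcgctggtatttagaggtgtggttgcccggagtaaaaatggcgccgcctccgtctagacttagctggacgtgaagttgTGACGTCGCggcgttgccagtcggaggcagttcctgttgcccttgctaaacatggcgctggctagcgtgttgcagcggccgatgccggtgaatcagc
Psmb6: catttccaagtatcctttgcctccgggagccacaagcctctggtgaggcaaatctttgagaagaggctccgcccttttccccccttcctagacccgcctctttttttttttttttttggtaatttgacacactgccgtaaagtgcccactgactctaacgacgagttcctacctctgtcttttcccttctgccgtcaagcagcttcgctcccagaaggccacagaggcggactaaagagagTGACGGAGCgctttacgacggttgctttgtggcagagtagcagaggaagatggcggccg
Psmd2: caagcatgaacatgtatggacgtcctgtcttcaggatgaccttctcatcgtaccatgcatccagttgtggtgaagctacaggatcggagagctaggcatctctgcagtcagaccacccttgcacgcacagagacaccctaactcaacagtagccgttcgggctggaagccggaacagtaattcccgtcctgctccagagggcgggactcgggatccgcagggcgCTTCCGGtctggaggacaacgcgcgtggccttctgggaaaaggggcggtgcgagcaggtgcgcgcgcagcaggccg
Psmd4: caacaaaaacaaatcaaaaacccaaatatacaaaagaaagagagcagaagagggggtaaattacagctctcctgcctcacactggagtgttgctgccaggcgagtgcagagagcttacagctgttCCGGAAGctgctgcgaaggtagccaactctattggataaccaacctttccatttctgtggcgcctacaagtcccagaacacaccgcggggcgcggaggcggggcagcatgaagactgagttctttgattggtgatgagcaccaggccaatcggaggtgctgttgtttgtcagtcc
Psme4: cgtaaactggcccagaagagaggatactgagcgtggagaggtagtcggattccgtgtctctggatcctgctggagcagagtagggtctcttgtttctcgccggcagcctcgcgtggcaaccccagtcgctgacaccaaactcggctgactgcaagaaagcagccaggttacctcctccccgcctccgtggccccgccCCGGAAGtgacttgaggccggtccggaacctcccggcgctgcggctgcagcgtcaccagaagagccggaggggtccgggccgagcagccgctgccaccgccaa
The match began 47 bases before the start in Psmb5, 9 in Psmb6, 26 in Psmd2, 125 in Psmd4 and 53 in Psme4.

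RefSeq promoters were at hand for 40 of the 48 genes and for 27025 genes in all, and 15 motifs were searched on both strands. The antioxidant response core was present in 6 of the 40 (15%, against 13.99% of all genes), namely Psmb5, Psmb6, Psmc6, Psmd9, Psmd12 and Psme4. The ETS core was present in 15 of the 40 (37.5%, against 9.93%). These were Psma6, Psmc1, Psmc2, Psmc3ip, Psmc6, Psmd2, Psmd4, Psmd6, Psmd11, Psmd12, Psmd13, Psme3, Psme4, Psmg1 and Psmg3. A GC box, GGGCGG, was found in 23 (57.5%, against 38.2%), CCAAT in 14 (35.0%, against 41.06%) and TATAAA in 4 (10%, against 15.67%). The ETS core overlaps the shorter ETS motif GGAAGTG that was also searched (8 of 40, 20%, against 12.45%). The inverted box ATTGGC was in 11 (27.5%, against 16.71%), its longer form GATTGGCT in 2 (5%, against 4.4%), the E box CACGTG in 4 (10%, against 8.09%) and TCGCGA in 1 (2.5%, against 2.86%). The nuclear respiratory factor site was in 2 (5%, against 1.07%) and the YY1 site in 1 (2.5%, against 0.75%). The full antioxidant response element TGACTCAGC, the cAMP response element TGACGTCA and the ZNF143 site were in 0 of the 40 windows, against 0.5%, 2.03% and 0.31% of all genes. ATTGGC and GATTGGCT both overlap CCAAT on the other strand. These counts describe letters in a window and not binding.

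Transcripts of 45 of the 48 genes averaged at least 1 CPM in controls, the exceptions being Psma8, Psmb8 and Psmb9. Compared per kilobase (kb) of the gene's merged exons, the highest was Psmb6, the caspase-like catalytic subunit, at 152 ± 17.4 CPM per kb in heterozygous libraries (SD, n = 2) and 138 ± 42.9 in controls (SD, n = 4). Next in the controls came Psmb2, a structural beta subunit, with 126 ± 24.0 CPM per kb in heterozygous libraries and 121 ± 30.5 in controls. Psmd2, a scaffold of the base, had 117 ± 1.80 CPM per kb in heterozygous libraries and 112 ± 5.12 in controls. Psmc1, an ATPase, had 119 ± 1.06 CPM per kb in heterozygous libraries and 109 ± 10.9 in controls. Of the 47 pairs of neighbours in the control order, 42 had overlapping control ranges, so most ranks were not separated by the spread. The exceptions were Psmd1 above Psme1, Psmd5 above Psmf1, Psmf1 above Psmd9, Psmd9 above Psmb10, and Psmg3 above Psmb9.

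Core subunits had a higher median level per kb than regulatory subunits in each of the 6 libraries. The median core gene had 60.6 CPM per kb in heterozygous libraries and 56.2 in controls, and the median regulatory gene 50.4 and 44.2 CPM per kb. The ratio of core to regulatory medians averaged 1.20 ± 0.167 in heterozygous libraries (SD, n = 2) and 1.22 ± 0.112 in controls (SD, n = 4). The base chaperones had a median of 9.32 CPM per kb in heterozygous libraries and 9.61 in controls, and the core chaperones 19.5 and 21.6 CPM per kb. These levels depend on the length used. Per kb of the longest transcript the control medians were 15.8 for base and 26.2 for core chaperones. Psmg3, a core chaperone, was the lowest of the chaperones, at 1.84 ± 0.250 CPM per kb in heterozygous libraries and 2.17 ± 0.431 in controls. Its exons overlap those of Gm26938 on the same strand, and 9.82% of its 50-base windows occur in other genes. The assignment of its reads, and so its level, is therefore uncertain.

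**Figure D1:**
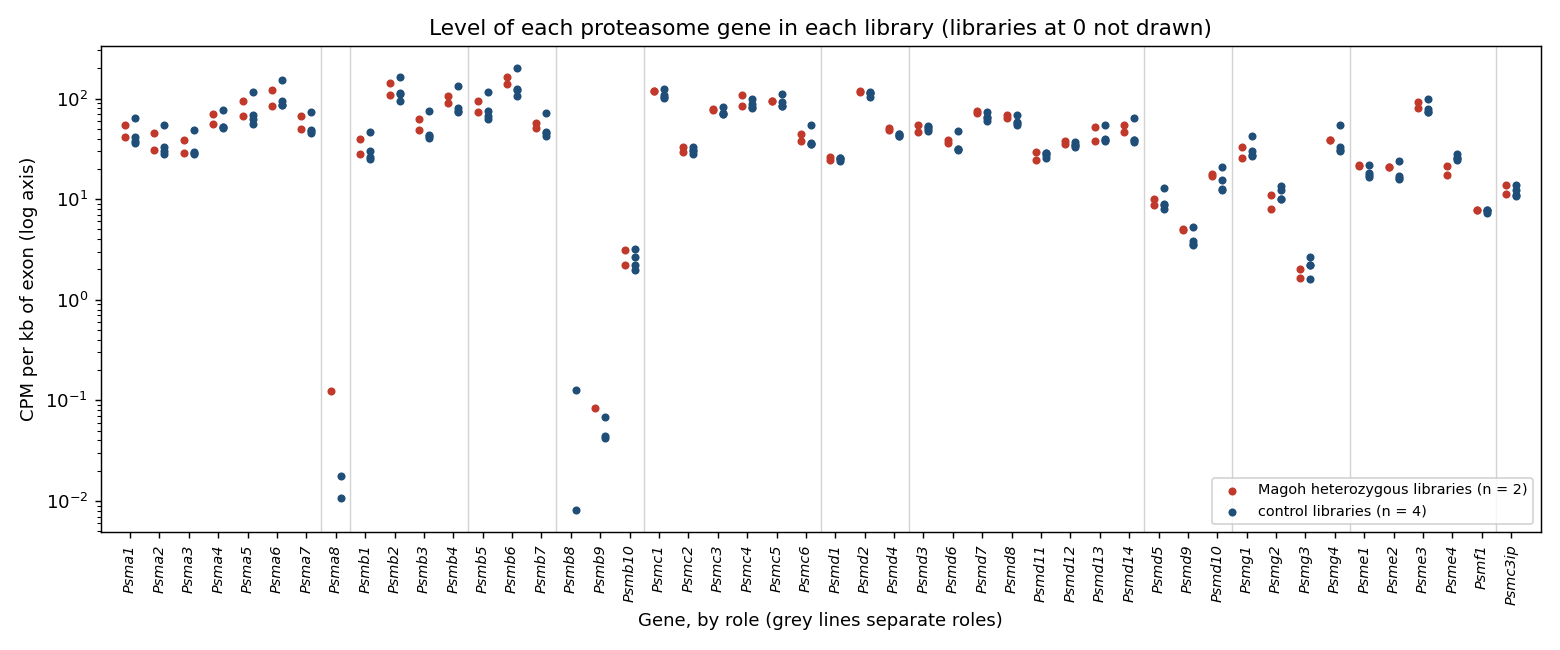
Level of each of the 48 genes in CPM per kb of exon on a log axis, with the 2 heterozygous libraries in red to the left of the 4 controls in blue, and genes ordered by role. Most genes lie above 10 CPM per kb, while Psma8, Psmb8 and Psmb9 lie far below and are at 0 in some libraries, which are not drawn.

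The catalytic beta subunits were almost entirely of the constitutive kind. Psmb6 had 308 and 262 CPM in heterozygous libraries 1 and 2, against 226, 376, 197 and 232 CPM in control libraries 1 to 4. Psmb7, the trypsin-like subunit, had 196 and 175 CPM in heterozygous libraries 1 and 2, against 154, 243, 146 and 161 CPM in control libraries 1 to 4. Psmb5, the chymotrypsin-like subunit and the main target of proteasome inhibitor drugs, had 84.2 and 66.7 CPM in heterozygous libraries 1 and 2, against 60.7, 105, 56.5 and 66.9 CPM in control libraries 1 to 4. In all 3 genes control library 2 was the highest, heterozygous library 1 was next, and the genotypes overlapped.

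The inducible subunits, which replace the constitutive ones under interferon to form the immunoproteasome, were near the floor except for Psmb10. Psmb10 had 5.33 and 3.8 CPM in heterozygous libraries 1 and 2, against 3.38, 5.51, 3.8 and 4.59 CPM in control libraries 1 to 4, and these values overlapped. Psmb9 had 13 and 0 reads in heterozygous libraries 1 and 2, against 6, 9, 0 and 7 reads in control libraries 1 to 4. Psmb8 had 0 reads in both heterozygous libraries, against 0, 1, 0 and 19 reads in control libraries 1 to 4, so a single control held nearly all of them. That control, library 4, also had the highest summed level of 7 microglia and macrophage markers, at 77 CPM, against 1.72 to 2.70 CPM in the other controls, while the heterozygous libraries had 8.65 and 0 CPM. The part of such cells in the Psmb8 reads was not tested, and in sorted pools fewer cells of a type and less RNA per cell cannot be told apart.

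Psmb8, Psmb9 and Psmb10 together gave 0.949% (exact 95% interval 0.833 to 1.08) and 0.749% (0.646 to 0.864) of the counts of the 6 catalytic genes in heterozygous libraries 1 and 2. The shares were 0.797% (0.667 to 0.944), 0.792% (0.688 to 0.907), 0.942% (0.807 to 1.09) and 1.11% (0.974 to 1.26) in control libraries 1 to 4. The shares overlapped between genotypes. The interval of control library 4 met neither that of heterozygous library 2 nor those of control libraries 1 and 2. These intervals cover counting error only. Psma8, which takes the place of an alpha subunit in male germ cells, had 13 and 0 reads in the heterozygous libraries, against 1, 0, 2 and 0 in controls. Psmb11, the beta subunit of the thymic cortex, had 11 reads over all 6 libraries and is not in the normalized table.

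Most proteasome genes were highest in the same 2 libraries, 1 of each genotype. Control library 2 was the highest of the 4 controls in 40 of the 46 genes tested and the highest of all 6 libraries in 34. Heterozygous library 1 exceeded library 2 in 37. The shares of all genes for these counts are not given here, so how far they are particular to the members is not known. Together the 48 genes took 0.652 and 0.574% of all counts in heterozygous libraries 1 and 2, against 0.532, 0.690, 0.536 and 0.562% in control libraries 1 to 4. The 2 libraries without Y-linked reads were both above all other 4 libraries in 33 of the 46 genes, against 19.4% of all genes tested. The difference between those 2 libraries and the other 4 had a median of 0.40 on the log2 scale over the 46 genes, beside 0.01 over all genes.

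All 14 core genes (alpha, structural and constitutive beta) were higher in heterozygous library 1 and control library 2 than in every other library, with a median difference of 0.59 on the log2 scale. Psma5, an alpha subunit with the widest range of the 14, had 124 and 87.7 CPM in heterozygous libraries 1 and 2, against 82.3, 155, 73.3 and 90.1 CPM in control libraries 1 to 4. Psma4, with the narrowest, had 166 and 131 CPM in heterozygous libraries 1 and 2, against 123, 184, 122 and 124 CPM in control libraries 1 to 4. Their highest and lowest libraries differed 2.11-fold for Psma5 and 1.51-fold for Psma4. Psmb3, a structural beta subunit, had 143 and 113 CPM in heterozygous libraries 1 and 2, against 98.7, 172, 92.5 and 98.5 CPM in control libraries 1 to 4. Heterozygous library 2 lay among the other 3 controls for Psma5, and above them but below library 1 for Psma4 and Psmb3.

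In the regulatory particle the order of libraries was mixed. Of its 17 genes, 10 were higher in the 2 libraries without Y-linked reads than in every other library, with a median difference of 0.18 on the log2 scale over the 17. Among the lid genes, Psmd14, the deubiquitinase that cuts ubiquitin chains off substrates, had 155 and 132 CPM in heterozygous libraries 1 and 2, against 108, 179, 103 and 108 CPM in control libraries 1 to 4. Psmd11, another lid subunit, had 155 and 187 CPM in heterozygous libraries 1 and 2, against 184, 175, 185 and 165 CPM in control libraries 1 to 4, with heterozygous library 1 the lowest of the 6. Psmc6, an ATPase, varied 1.58-fold over the 6 libraries and Psmc3, another ATPase, 1.16-fold. None of the 3 base subunits Psmd1, Psmd2 and Psmd4 was higher in both libraries than in the other 4, and their highest and lowest libraries differed by 1.09- to 1.21-fold. Psmd2 had 468 and 478 CPM in heterozygous libraries 1 and 2, against 465, 463, 421 and 458 CPM in control libraries 1 to 4, and Psmd1, its fellow scaffold, 191 and 176 CPM in heterozygous libraries 1 and 2, against 183, 186, 175 and 186 CPM in control libraries 1 to 4. Psmf1, an inhibitor of the core particle, had the narrowest range of the members with reads in all 6 libraries, 1.08-fold.

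The ratio of summed core to summed regulatory counts put the contrast in 1 value per library. It was 0.751 and 0.607 in heterozygous libraries 1 and 2, against 0.602, 0.869, 0.577 and 0.622 in control libraries 1 to 4. The 2 libraries without Y-linked reads were again the highest, and the other 4 lay within 0.577 to 0.622.

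**Figure D2:**
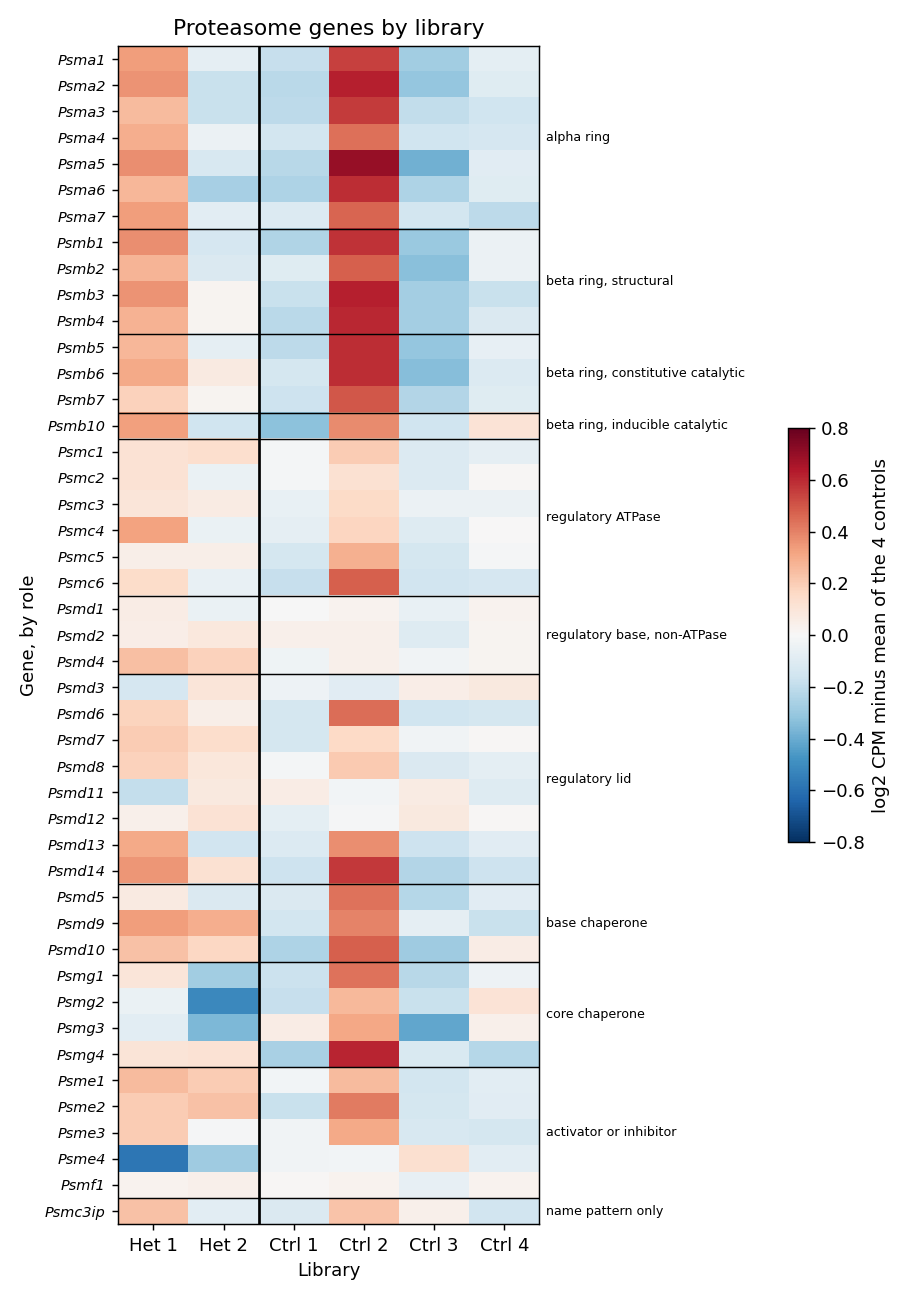
Log2 CPM of the 45 tested genes that average 1 CPM or more, in each library, minus the mean of the 4 controls, with heterozygous libraries left of the controls and genes ordered by role (red is higher, blue is lower). The columns of heterozygous library 1 and control library 2 are red over all 14 core genes, whereas the base subunits Psmd1, Psmd2 and Psmd4 are pale across controls.

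The same library difference varied with transcript length. Over all genes, the median difference between the libraries without Y-linked reads and the other 4 fell with length class: it was 0.46 on the log2 scale for 765 genes whose longest transcript is under 1000 nucleotides, 0.26 for 1943 genes of 1000 to 2000, 0.06 for 5153 genes of 2000 to 4000, −0.24 for 4325 genes of 4000 to 8000 and −0.58 for 822 longer ones. In the same classes the proteasome genes had medians of 0.52 (5 genes), 0.44 (24 genes), 0.22 (14 genes) and 0.08 (2 genes), with none in the longest. In each class that held members, their median was thus above that of all genes. Across 45 members, Spearman's rho between longest transcript and this difference was −0.53; the points share the same 6 libraries, so this describes them and is no test.

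The dependence of each library on merged exon length and GC content was then taken out. After this the difference had a median of 0.39 over the 14 core genes and 0.10 over the 17 regulatory genes. Over all genes it was 0.04. Merged exons can be far longer than the longest transcript used above, as in Psmb1 (4595 against 1970 nucleotides). Across 45 members, Spearman's rho between longest transcript and the difference was −0.18 after removal. Removal on the longest transcript was not tested. The mean score of the core genes, in log2 CPM relative to the control mean, was 0.30 and −0.08 in heterozygous libraries 1 and 2, against −0.18, 0.56, −0.27 and −0.11 in control libraries 1 to 4. With the trend removed it was 0.24 and −0.00 in heterozygous libraries, against −0.11, 0.39, −0.19 and −0.08 in controls. So the 2 libraries stayed the highest for core genes in both forms. Absence of Y-linked reads and the length trend mark the same 2 libraries, so their parts in what remains cannot be told apart.

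**Figure D3:**
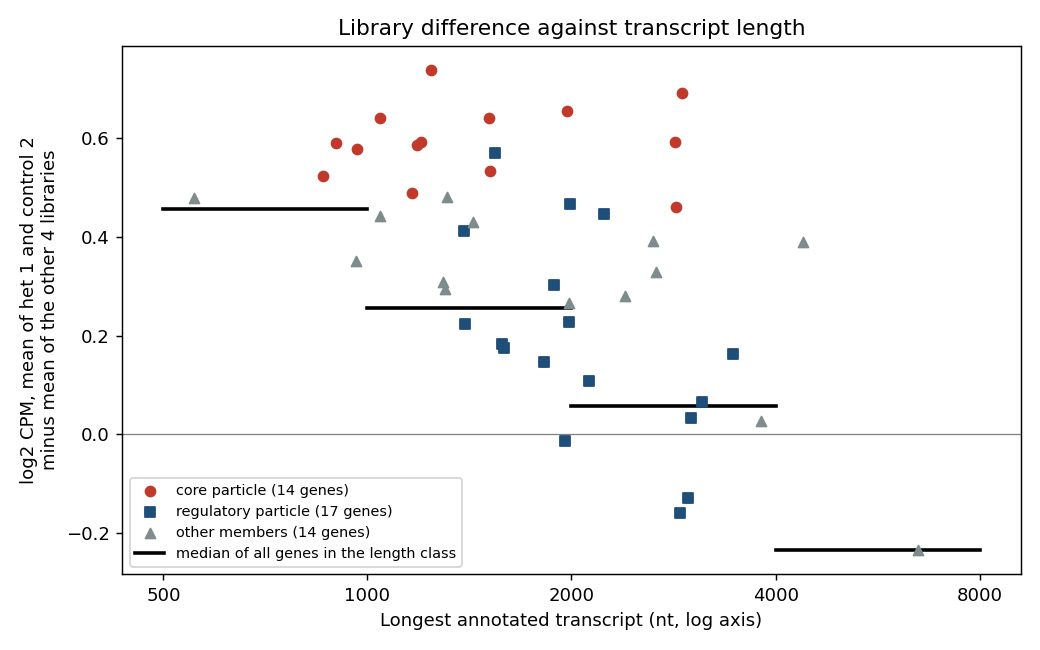
Difference in log2 CPM between the mean of heterozygous library 1 and control library 2 and the mean of the other 4 libraries, against the longest annotated transcript in nucleotides on a log axis, for 45 members; black lines are medians of all genes in each length class. The 14 core genes lie between 0.46 and 0.74, above the line of their class, and the regulatory genes spread around it.

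**Figure D4:**
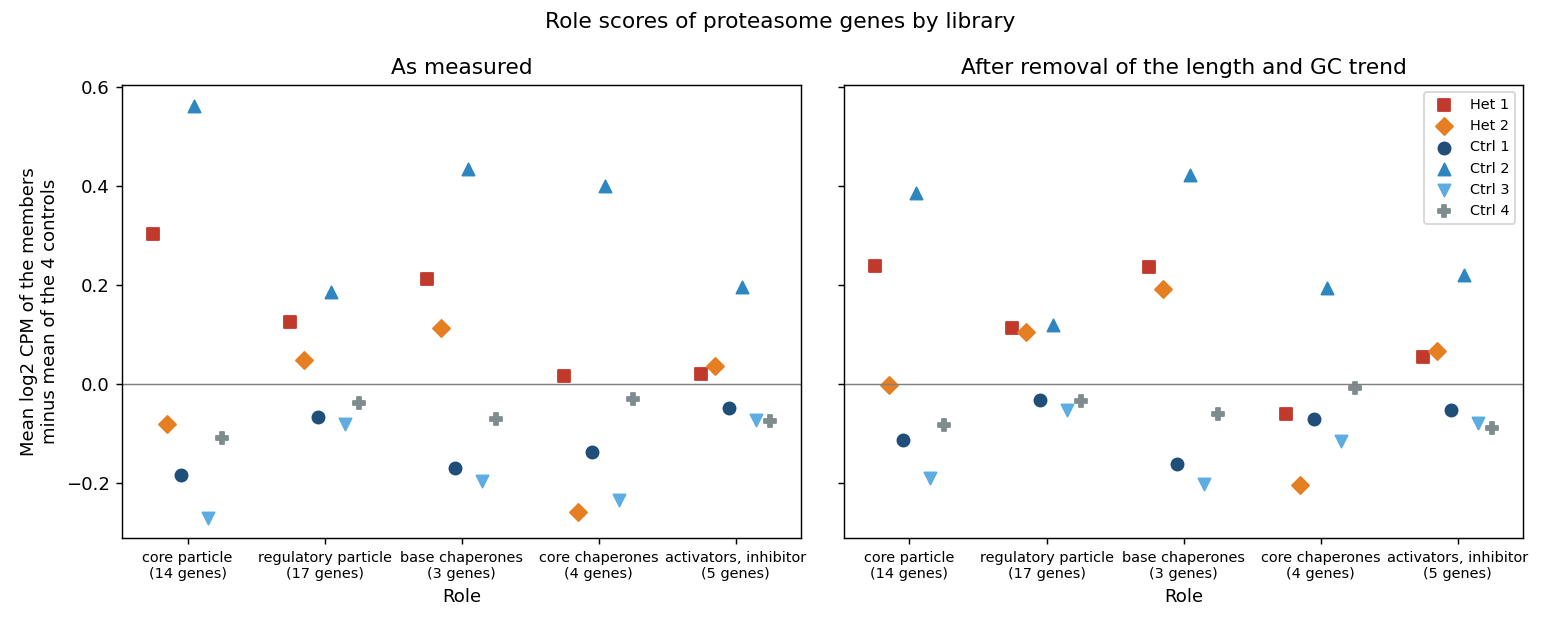
Mean log2 CPM of the members of 5 role groups in each library, relative to the mean of the 4 controls, as measured (left) and with the trend on length and GC content removed (right); symbols are single libraries, heterozygous ones first. Core scores run from −0.27 to 0.56 as measured and regulatory scores from −0.08 to 0.19.

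Between genotypes, no proteasome gene passed the test. Of 46 genes tested (Psma8 and Psmb8 fell under the count filter), 0 had a Benjamini-Hochberg adjusted p below 0.05 in edgeR's quasi-likelihood test over 16495 genes, in which 0% of all genes (0 of 16495) passed. DESeq2 called 0 of the members and 0.449% of all genes (74). One member had an unadjusted edgeR p below 0.05 and it was lower in heterozygous libraries, where 1.75% of all genes were higher at that level (288) and 3.98% lower (656). Log2 fold changes, heterozygous over control, ran from −0.43 to 0.29 with a median of 0.08, beside −0.03 over all genes. They were above 0 in 7598 of all 16495 genes and in 38 of the 46 members.

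That count changed with the libraries kept and with the covariate. Without heterozygous library 1, 20 of 47 tested members were above 0 and the median was −0.04. Without control library 2, 40 of 45 were above 0, the median was 0.23 and 10 members had an unadjusted p below 0.05, with 0 adjusted. Of these, 9 were higher in heterozygous libraries, where 5.98% of all genes were higher at that level in the same fit, and 1 (Psme4) was lower, against 9.52% of all genes. With the presence of Y-linked reads as a covariate, 21 of 46 were above 0 with a median of −0.01. Leaving out any of the other 4 libraries left the median between 0.02 and 0.19. The members above 0 were then 30 of 46 (without control library 1), 28 of 46 (control library 3), 36 of 46 (control library 4) and 42 of 48 (heterozygous library 2). Without both libraries that lack Y-linked reads 36 of 46 were above 0, and 41 of 46 with the trend on length and GC content removed. Within the libraries without Y-linked reads, heterozygous library 1 minus control library 2 had a median of −0.20 over the members, and among the others heterozygous library 2 minus the mean of 3 controls had a median of 0.10. The same 2 medians were −0.28 and 0.10 for the 14 core genes, and −0.04 and 0.11 for the 17 regulatory genes.

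Between the genotypes, both heterozygous libraries exceeded all 4 controls in 2 of the 46 genes (6.17% of all genes did so), and both were below all controls in 1 (8.14% of all genes). The 43 others overlapped. The core genes all overlapped: 13 of 14 had a fold change above 0, with a median of 0.09 on the log2 scale. Psma4 differed by 0.11 ± 0.23 (SE; adjusted p = 0.999 in edgeR) and Psmb3 by 0.15 ± 0.28; within the 2 classes Psma4 differed by −0.15 and 0.10, and Psmb3 by −0.26 and 0.23. Psmb5, Psmb6 and Psmb7 differed by 0.06 ± 0.27, 0.15 ± 0.27 and 0.07 ± 0.24, and Psmb10 by 0.08 ± 0.31, all with an adjusted p of 0.999. Heterozygous library 1 minus control library 2 was −0.32, −0.29, −0.32 and −0.05 for these 4 genes in that order. Heterozygous library 2 minus the mean of the other controls was 0.12, 0.27, 0.19 and −0.03, so the sign differed between the 2 classes for Psmb5, Psmb6 and Psmb7, and Psmb10 was below 0 in both. For Psmb9 the estimate of 0.10 ± 1.74 has an error so wide that it carries no direction.

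In the regulatory particle 15 of 17 genes had fold changes above 0, with a median of 0.08. Psmd4, the base subunit that binds ubiquitin chains, had 144 and 138 CPM in heterozygous libraries 1 and 2, against 119, 125, 119 and 124 CPM in control libraries 1 to 4. Both heterozygous libraries lay above every control, yet the log2 difference of 0.21 ± 0.14 did not pass (edgeR adjusted p = 0.946). It was 0.20 between heterozygous library 1 and control library 2, and 0.20 between heterozygous library 2 and the mean of the other controls. Psmd2 was the other gene whose heterozygous libraries lay above all controls, by a smaller margin of 0.07 ± 0.15, and 26.1% of its 50-base windows also occur in other genes, most often in the transcribed processed pseudogene Gm5422. Psmd7, the lid partner of the deubiquitinase, had 169.7 and 163 CPM in heterozygous libraries 1 and 2, against 134, 165, 145 and 149 CPM in control libraries 1 to 4, and it differed by 0.17 ± 0.15 (adjusted p = 0.999; 0.04 and 0.19 within the 2 classes). Psmc4, the ATPase with the smallest p of the 6, had 235 and 181 CPM in heterozygous libraries 1 and 2, against 179, 212, 175 and 189 CPM in control libraries 1 to 4. Heterozygous library 1 was the highest of the 6 and library 2 lay among the controls, with a difference of 0.14 ± 0.18.

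The 2 sets of assembly chaperones had medians of opposite sign. Psmd9, a base chaperone, had 36.6 and 35.5 CPM in heterozygous libraries 1 and 2, against 26.2, 38.2, 27.6 and 25.6 CPM in control libraries 1 to 4. Both heterozygous libraries exceeded 3 of the controls and lay below control library 2, with a difference of 0.29 ± 0.21 (edgeR adjusted p = 0.956), the highest among the members. It was −0.06 between heterozygous library 1 and control library 2, and 0.42 between heterozygous library 2 and the mean of the other controls. Psmd10, another base chaperone that is also known as the oncoprotein gankyrin, had 25.9 and 24.7 CPM in heterozygous libraries 1 and 2, against 18.6, 30.7, 18.1 and 23 CPM in control libraries 1 to 4, with −0.24 and 0.32 within the 2 classes. Psmd10 lies on the X chromosome. Psmg2, a chaperone of alpha ring assembly, had 19.1 and 13.8 CPM in heterozygous libraries 1 and 2, against 17.4, 23.6, 17.5 and 21.3 CPM in control libraries 1 to 4, and differed by −0.28 ± 0.22 (adjusted p = 0.977). Its heterozygous library 2 was the lowest of the 6, while library 1 lay inside the control range. The within-class differences of Psmg2 were −0.31 for library 1 against control library 2 and −0.43 for library 2 against the other controls. Of the 4 core chaperones, 3 had fold changes below 0, with a median of −0.17, whereas 2 of the 3 base chaperones were above 0 with a median of 0.16. Heterozygous library 1 minus control library 2 gave medians of −0.36 for core and −0.24 for base chaperones, and heterozygous library 2 minus the other controls −0.20 and 0.32, so the opposite signs appeared in 1 class only. A difference between these sets was not tested.

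Psme4 stood furthest from 0. It encodes a large nuclear activator of the core particle that is linked to histone degradation, and it lies on the plus strand at chr11:30771726-30880361 (GRCm38). It had 145 and 178 CPM in heterozygous libraries 1 and 2, against 213, 214, 237 and 205 CPM in control libraries 1 to 4. Both heterozygous libraries were below every control, and the log2 difference was −0.43 ± 0.17 (SE; edgeR quasi-likelihood unadjusted p = 0.0328, adjusted p = 0.85; DESeq2 adjusted p = 0.519). Over the alternative settings the adjusted p ran from 0.244 to 1. The difference was −0.56 between heterozygous library 1 and control library 2, and −0.29 between heterozygous library 2 and the mean of the other controls. With the trend on length and GC content removed the estimate was −0.33, with an unadjusted edgeR p of 0.0541. Leaving out control library 1, 3 or 4 gave an unadjusted edgeR p of 0.0636, 0.0827 and 0.0532. It was 0.0189 without control library 2. The unadjusted p was 0.0203 in DESeq2 and 0.0249 in limma-voom. Psme4 has the longest transcript of the members, 6491 nucleotides.

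The other activators had fold changes above 0. Psme1 and Psme2, which form the interferon-inducible cap of the core particle, differed by 0.22 ± 0.17 and 0.20 ± 0.21, and Psme3, their nuclear relative, by 0.09 ± 0.19. Between heterozygous library 1 and control library 2 these 3 genes differed by −0.00, −0.21 and −0.10. Between heterozygous library 2 and the mean of the other controls they differed by 0.29, 0.37 and 0.09. Of the windows of Psme2, 59.3% also occur in other genes, most often in Psme2b, so its reads are uncertain. Psmc3ip, placed here by name only, had 25.3 and 20.3 CPM in heterozygous libraries 1 and 2, against 19.9, 25.3, 22.2 and 19.3 CPM in control libraries 1 to 4, and differed by 0.07 ± 0.19.

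**Figure D5:**
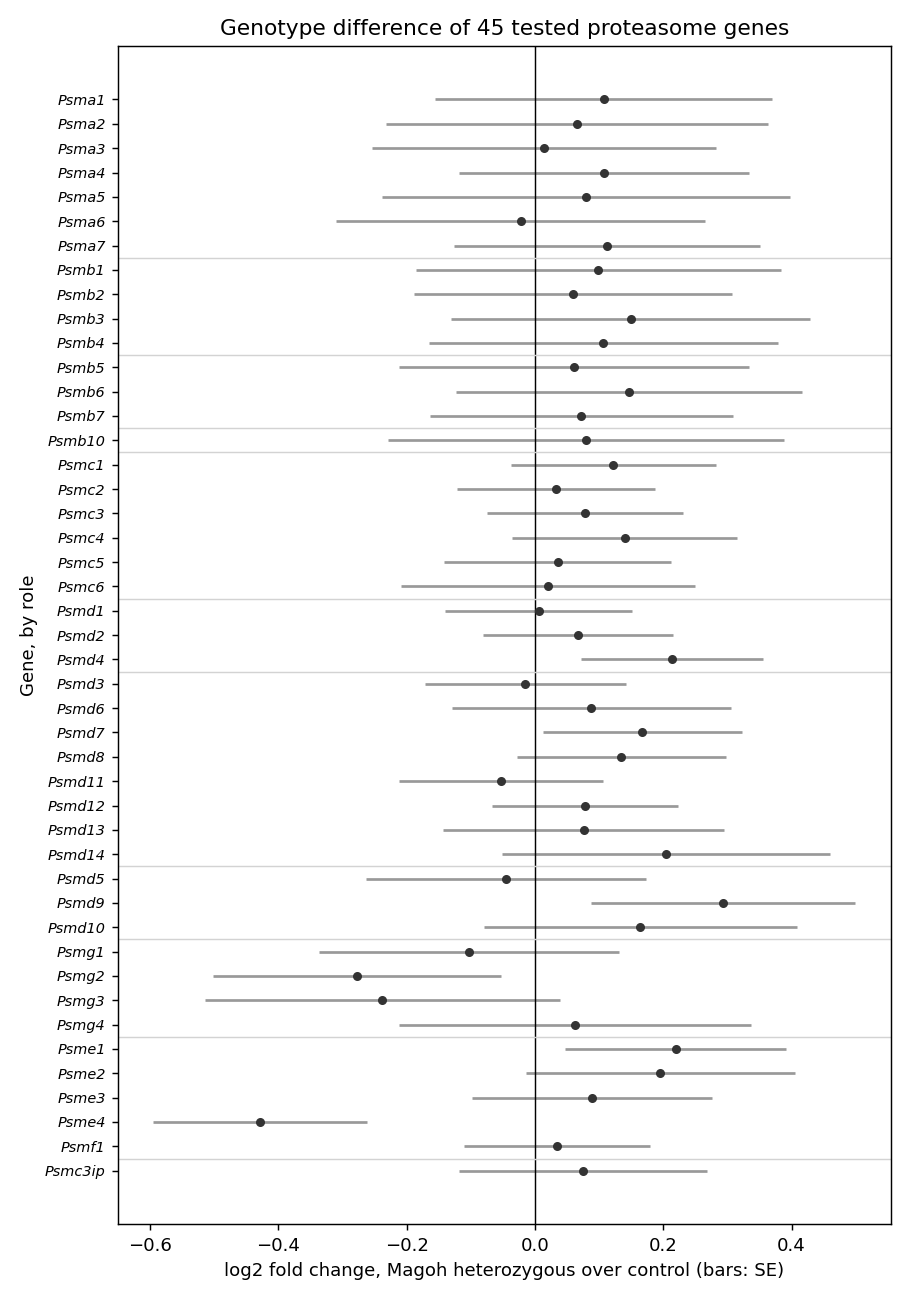
Log2 fold change, heterozygous over control, of the 45 tested members that average 1 CPM or more, with bars of 1 SE, by role. Estimates run from −0.43 for Psme4 to 0.29 for Psmd9, and most bars cross 0.

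Among the marker lists, the summed level of 8 pan-neuronal genes was 3372 and 4034 CPM in heterozygous libraries, against 1953 to 2889 CPM in controls; all 8 had fold changes above 0, 4 had an unadjusted p below 0.05 and 0 passed adjustment. Both heterozygous libraries lay above all controls in 5 of the 8 (6.17% of all genes did so), and not for Elavl3, Map2 and Snap25. Of the 12 MGE lineage genes 9 had fold changes above 0, with a median of 0.45, 1 had an unadjusted p below 0.05 and 0 passed. Over all genes in the same edgeR fit, 1.75% were higher and 3.98% lower at an unadjusted p below 0.05. Erythroid genes summed to 309 and 0.59 CPM in heterozygous libraries and 23.7 to 111 CPM in controls. Mesenchyme genes summed to 186 and 68.1 CPM in heterozygous libraries and 114 to 204 CPM in controls, endothelial and mural genes to 21.7 and 15.2 CPM against 11.47 to 39.0 CPM, and surface ectoderm genes to 13.2 and 6.27 CPM against 10.5 to 16.0 CPM, with Krt14 at 0 in all 6. The part of neuronal maturity or other cells in the proteasome values was not tested.

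Genes that work with the proteasome gave no call either. Of 17 partner genes tested, 9 had fold changes above 0 and 8 below, with a median of 0.06 and 0 passing. Pomp, the chaperone that matures the core particle, had 87.2 and 68.8 CPM in heterozygous libraries 1 and 2, against 64.1, 109, 65.4 and 73.5 CPM in control libraries 1 to 4, so control library 2 and heterozygous library 1 were the highest here too. Its genotype difference was −0.00 ± 0.25, and the difference of the 2 libraries from the other 4 was 0.53 on the log2 scale. Zfand5, a stress-linked activator, had 126 and 117 CPM in heterozygous libraries 1 and 2, against 96.9, 122, 91.3 and 94.3 CPM in control libraries 1 to 4 (0.26 ± 0.17, edgeR adjusted p = 0.946). Uchl5, a proteasome-bound deubiquitinase, differed by 0.16 ± 0.17, Zfand2a by 0.19 ± 0.19 and the ubiquitin ligase Ube3c by −0.19 ± 0.19.

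The regulators of proteasome genes had a median difference of −0.25 on the log2 scale between the 2 libraries without Y-linked reads and the other 4, opposite in sign to the subunits. Nfe2l1 had 138 and 183 CPM in heterozygous libraries 1 and 2, against 186, 96.1, 207 and 211 CPM in control libraries 1 to 4. Control library 2 was the lowest and heterozygous library 1 the next lowest, the reverse of the core genes, with a difference of −0.77 on the log2 scale from the other 4 libraries. Its longest transcript has 4654 nucleotides, and all genes of 4000 to 8000 had a median of −0.24. With the trend on length and GC content removed the difference was −0.52 for Nfe2l1, and the median over the 10 regulators, whose median transcript has 3306 nucleotides, was −0.10. Between genotypes it differed by −0.13 ± 0.32. Over the 10 regulators 4 fold changes were above 0 and 6 below, with a median of −0.14 and 0 passing; the related factors Nfe2l2 and Nfe2l3 differed by −0.16 ± 0.21 and −0.42 ± 0.39, and the small Maf partners Mafk and Maff by −0.21 ± 0.20 and −0.50 ± 0.56.

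Ubiquitin supply genes split evenly, 3 above 0 and 3 below of 6, with 0 passing. Uba1, the main ubiquitin-activating enzyme, had 1155 and 1213 CPM in heterozygous libraries 1 and 2, against 1044, 945, 861 and 942 CPM in control libraries 1 to 4. Both heterozygous libraries were above all controls, with a difference of 0.32 ± 0.16 (edgeR unadjusted p = 0.0775, adjusted p = 0.876). Ubb, a polyubiquitin gene, had 854 and 882 CPM in heterozygous libraries 1 and 2, against 755, 780.5, 711 and 669.5 CPM in control libraries 1 to 4. It again had no overlap and differed by 0.25 ± 0.15 (edgeR adjusted p = 0.92). Both heterozygous libraries were above all controls in 2 of the 6 genes, and in 6.17% of all genes. Uba1 and Ubb were named for their small p. Uba6, another activating enzyme, differed by −0.08 ± 0.16.

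Antigen presentation, which uses peptides cut by the proteasome, had 8 tested genes, 3 above 0 and 5 below, with a median of −0.08. H2-K1, a class I molecule that presents such peptides, had 13.1 and 10.9 CPM in heterozygous libraries 1 and 2, against 16.2, 22.7, 19.8 and 19.3 CPM in control libraries 1 to 4. Both heterozygous libraries were below every control (8.14% of all genes were), with a difference of −0.70 ± 0.21 (edgeR unadjusted p = 0.00991, adjusted p = 0.793). The close similarity of class I genes leaves the assignment of its reads uncertain. H2-D1 differed by −0.16 ± 0.18 and Tapbp by −0.17 ± 0.39.

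Outside the members, the 5 genes whose log2 CPM followed the members' mean most closely over the 6 libraries, among 13077 ranked, were Atp5o, Slc12a9, Rpl24, Uqcrh and Rps10, with Pearson's r from 0.998 to 0.999. Atp5o, a subunit of mitochondrial ATP synthase, had 255 and 194 CPM in heterozygous libraries 1 and 2, against 184, 307, 173 and 195 CPM in control libraries 1 to 4. Rps10, a protein of the small ribosomal subunit, had 871 and 629 CPM in heterozygous libraries 1 and 2, against 566, 1053, 526 and 619 CPM in control libraries 1 to 4. With 6 libraries, of which 2 lie apart, such values describe a shared order of libraries and carry no test.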

How the data were processed

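RNA was measured in 2 heterozygous and 4 control libraries. Reads were handled with Trim Galore, STAR and HTSeq on mm10, per the submitters' processing notes, which name no versions. Strand setting and annotation: not given in the sources used here. Reads of genes that overlap (12 members overlap another gene's exons on the opposite strand, among them Psmb7, Psmb9, Psmc3, Psmd1 and Psme1) or have near-identical copies are therefore of uncertain origin. On the same strand, exons of Psmb5 overlap Mir686, those of Psmd1 Gm21972 and those of Psmg3 Gm26938, so these reads are uncertain under any strand setting. In 6 members, Psma3, Psma4, Psma5, Psmb5, Psmd2 and Psme2, over 20% of 50-base windows also occur in another gene.

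The authors deposited raw read counts for 38561 genes, with 0 rows that name no gene. They also deposited normalized values (a signal; each library's values were checked to equal its raw counts over a constant) for 18065 genes. Tests used the raw counts, and the normalized table gave the members and 1 alternative. Columns were matched to samples by the code in their names, with 0 columns of no sample.

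Genes were kept by filterByExpr (16495) and scaled by TMM factors in edgeR 4.0.16 (R 4.3.3). Genotypes were compared by edgeR's quasi-likelihood test, two-sided, adjusted by Benjamini-Hochberg over all tested genes at a threshold of 0.05; the standard error was taken as log2 fold change over the root of F. For 4 against 2 libraries the smallest two-sided p of an exact permutation test is 0.0667. Levels per kb used the union of exons of GENCODE M21, in which all 48 members were found, and coordinates and lengths come from there. Scores are means of log2 CPM (prior count 2). The trend on length (union of exons) and GC content was removed by loess with a span of 0.5, and 98.61% of tested genes had both values.

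The members, role groups, lists and the rule for naming genes were chosen with earlier results of these data known. Values are printed for the 6 catalytic genes, the member with the smallest p in each role, any member with an unadjusted p below 0.05, the highest and lowest members by level, and up to 4 genes of each other list by smallest p, plus Nfe2l1 and Pomp; some genes that this rule names are not reported here. Psma5, Psmd1, Psmd2, Psmd10, Psmd11, Psmd14 and the ratios and chaperone levels beside them were chosen after their values were seen.

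Alternatives were DESeq2 1.42.0, limma 3.58.1 (voom, and trend on log2 of the normalized values plus 1), other scalings and filters, covariates and leaving out libraries. On counts simulated for 4 against 2 libraries and 15878 genes, edgeR recovered 20% of genes changed 2-fold and 73% of those changed 4-fold, and made 5 wrong calls. For DESeq2 the shares were 43% and 87% (36 wrong calls) and for limma-voom 19% and 72% (7 wrong calls). Changed genes averaged at least 1 CPM. Each gene was drawn independently in each library, without a library difference shared by many genes as in the real data, so real recovery may differ.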

Additional observations from a re-analysis of the deposited data

Results flagged for a closer look

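Among the 4 controls, 16 of 46 tested members had 1 library far from the other 3, with a gap to the nearest control that exceeded Dixon's 95% limit for 4 samples as a share of the whole control range. Chance marks about 1 in 20 groups, and the members share libraries, so the marks are not independent of each other. Over all tested genes the same limit marked 9.73%, and 4.71% had control library 2 as the high one. In 15 of the 16 the library was control library 2 and it was the highest: Psma3 (0.949), Psma4 (0.970), Psma6 (0.856), Psma7 (0.883), Psmb3 (0.921), Psmb4 (0.863), Psmb7 (0.849), Psmc3 (0.932), Psmc6 (0.944), Psmd13 (0.885), Psmd14 (0.936), Psmd6 (0.974), Psmd9 (0.842), Psme2 (0.872) and Psmg4 (0.882). The values in brackets are the gap divided by the range. They span both particles and the accessory genes: 7 are core genes, and the regulatory genes include Psmc3 and Psmc6 of the ATPase ring and Psmd6, Psmd13 and Psmd14 of the lid. Control library 2 is 1 of the 2 libraries without Y-linked reads. The remaining one was Psmd2 (0.837), where control library 3 was the lowest.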

How the results depend on the processing

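No member passed under the reported fit or any of the 18 alternatives, of which 1, leaving out together the 2 libraries without Y-linked reads, was chosen after seeing the data. No gene passed in edgeR as reported. DESeq2 passed 74 genes and a fit with the samples' code number as replicate block passed 11, and the other 16 alternatives passed 0, those that leave out 1 library included; the causes of these differences were not tested. The groups share only 1 code number, so the numbers do not pair the samples and the blocked fit compares 1 control with 1 heterozygous library. The members' median ran from −0.04 (without heterozygous library 1) to 0.23 (without control library 2), with 0.11 under the block, −0.01 with Y-linked reads as a covariate and 0.11 without both libraries that lack them.

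The log2 fold changes of Psmb6, Psmd4, Psmd7, Psmd9, Psme4 and Psmg2 kept their sign under all 18 alternatives, and Psme4 ran from −0.59 to −0.26. With Y-linked reads as a covariate the sign turned for Psmb5 (−0.0539), Psmb7 (−0.0107), Psmb9 (−1.48), Psmb10 (−0.0463) and Psmc3ip (−0.0051). Without both libraries that lack these reads it turned for Psmb10 (−0.0348). Psmb9, with few reads, was also negative in limma-voom (−0.79), on the normalized values (−0.45) and under the block (−5.80). Leaving out each library in turn gave −0.061 to 0.29 for Psma4, −0.17 to 0.30 for Psmb10, −0.018 to 0.42 for Psmb3, −0.10 to 0.31 for Psmb5, −0.0061 to 0.28 for Psmb7, −5.61 to 1.10 for Psmb9 (not fitted without control library 2, where it fell under the count filter), −0.0795 to 0.22 for Psmc3ip and −0.047 to 0.31 for Psmc4; the causes were not tested. At this depth and with 2 heterozygous libraries, the recovery of 2-fold changes was 20% in a simulation without library differences shared by many genes. Recovery in the real data may differ.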
